A study of Mus musculus with 12 samples.

Results

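Interferon beta and the proteins that carry its signal are encoded by the 9 genes described here, chosen by name from the 55416 gene identifiers of the count table: Ifnb1, Ifnar1, Ifnar2, Jak1, Tyk2, Jak2, Stat2, Stat3 and Stat5a. RNA was sequenced from SIM-A9, a mouse microglial cell line, and from H14, a line derived from it in which, by the labels, the serine/threonine kinase MOK is knocked out. The 4 groups were the MOK knockout (KO) with lipopolysaccharide (LPS) at 1 µg/mL for 5 h, wild-type SIM-A9 (WT) with the same LPS treatment, KO in medium and WT in medium, each with 3 libraries labelled as biological replicates. Libraries were stranded and made from total RNA after removal of ribosomal RNA. H14 was the single KO line used, so effects of MOK loss and of other differences of H14 from its parent cannot be told apart. In bulk RNA, fewer cells of a type and less RNA per cell also cannot be told apart. The labels do not describe how replicate cultures were kept separate, and the p-values therefore reflect the spread among libraries, which may be technical. All 9 genes are protein-coding and passed the filter on low counts, among 26420 genes tested.

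Type I interferons are secreted proteins by which cells that sense microbes alert themselves and their neighbours. LPS binds Toll-like receptor 4, and its endosomal branch leads through TBK1 and IKK epsilon to the transcription factor IRF3, which acts with NF-kB and AP-1 at the Ifnb1 promoter. Secreted interferon beta binds a receptor made of IFNAR1 and IFNAR2, whose attached kinases TYK2 and JAK1 phosphorylate STAT proteins. STAT2 joins another STAT and IRF9 in the complex ISGF3, which binds interferon-stimulated response elements of antiviral genes. STAT3 and STAT5A serve many other cytokines, and JAK2 serves receptors such as those for GM-CSF and interferon gamma. Microglia, the resident macrophages of the brain, both make interferon beta and respond to it.

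Library totals were between 39.7 and 72.9 M counts. The targeted gene, Mok, had 78, 84 and 56 counts in the KO libraries under LPS, against 164, 87 and 158 in the WT libraries. Without LPS, its KO libraries held 115, 117 and 95 counts, against 158, 163 and 206 for WT. Mok transcripts were present in every library, and gene counts do not show whether they carry an edit. Of 14 microglia and macrophage markers, 9 to 12 reached a group mean of 1 CPM, while P2ry12 and C1qa stayed under 1 CPM in all 4 groups. The summed markers were at 1130 to 1580 CPM in KO under LPS, 1580 to 1830 in WT under LPS, 838 to 1220 in KO in medium and 1220 to 1440 in WT in medium. Oligodendrocyte markers summed to 12.9 to 16.7, 7.99 to 8.58, 27.9 to 28.6 and 11 to 16.7 CPM in the same order of groups, and the markers of each of the other 4 cell types summed to at most 9.29 CPM. Processed pseudogenes held 6.64% to 7.35% of counts in KO under LPS, 6.28% to 7.05% in WT under LPS, 12.8% to 14.3% in KO in medium and 6.58%, 8.89% and 13.0% in the WT medium libraries. Replicate 2 of KO under LPS stood apart, with identifiers that match no symbol holding 10.4% of its counts, and it was the lowest library of its group for 8 of the 9 genes, Ifnar1 being the other. Replicate 2 of KO in medium was likewise lowest, or tied at 0 for Ifnb1, for all 9, and replicate 2 was lowest for 6 of the 9 in each WT group. The part of these library differences in the results below was not tested beyond leaving libraries out, adding the pseudogene share to the model, or using libraries with a low share.

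The promoters of Ifnb1 and Stat2 are shown because these genes had the lowest KO levels relative to WT under LPS among the 9. Both stretches end at the base before the transcription start in RefSeq's GRCm38.p6 promoter table, which held all 9 genes. The count table was made on GRCm39, so these coordinates are not those of the counted genes. Capitals mark matches to the response element core (GAAA, any 2 bases, GAAA), to the interferon regulatory factor (IRF) core AANNGAAA or to the NF-kB consensus, on either strand.
Ifnb1, chr4:88522795-88523044, minus strand: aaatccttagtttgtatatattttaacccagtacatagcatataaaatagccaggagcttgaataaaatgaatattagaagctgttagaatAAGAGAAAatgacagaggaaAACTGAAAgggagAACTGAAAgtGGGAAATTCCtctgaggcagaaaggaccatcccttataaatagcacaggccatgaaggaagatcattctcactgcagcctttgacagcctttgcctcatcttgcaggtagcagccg
Stat2, chr10:128270248-128270497, plus strand: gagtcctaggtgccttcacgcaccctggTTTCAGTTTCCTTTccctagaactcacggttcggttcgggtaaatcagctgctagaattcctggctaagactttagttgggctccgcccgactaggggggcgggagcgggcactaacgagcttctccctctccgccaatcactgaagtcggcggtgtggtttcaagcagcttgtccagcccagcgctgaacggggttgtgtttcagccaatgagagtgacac
The Ifnb1 promoter held 3 IRF cores, at positions -159 to -152, -139 to -132 and -126 to -119 from the transcription start, followed by an NF-kB match at -116 to -107. In the Stat2 promoter, a response element core on the minus strand at -222 to -213 overlapped IRF cores at -222 to -215 and -216 to -209. Matches were sought from 250 bases before to 50 bases after the start, a longer window than the stretches shown. Among 32851 promoters with that window, 3.44% held the response element core, 4.51% the NF-kB consensus and 23.9% the IRF core, so the last is a common match. The IRF core was added after the sequences had been read. The STAT dimer site TTCNNNGAA, present in 8.30% of promoters, occurred in those of Ifnar1 (-5 to 4) and Ifnar2 (-214 to -206), and 1 of the 2 Stat5a promoters listed held an NF-kB match (-234 to -225). None of these motifs matched in the windows of Jak1, Jak2, Tyk2 and Stat3. A match describes letters and does not show binding.

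**Figure D1:**
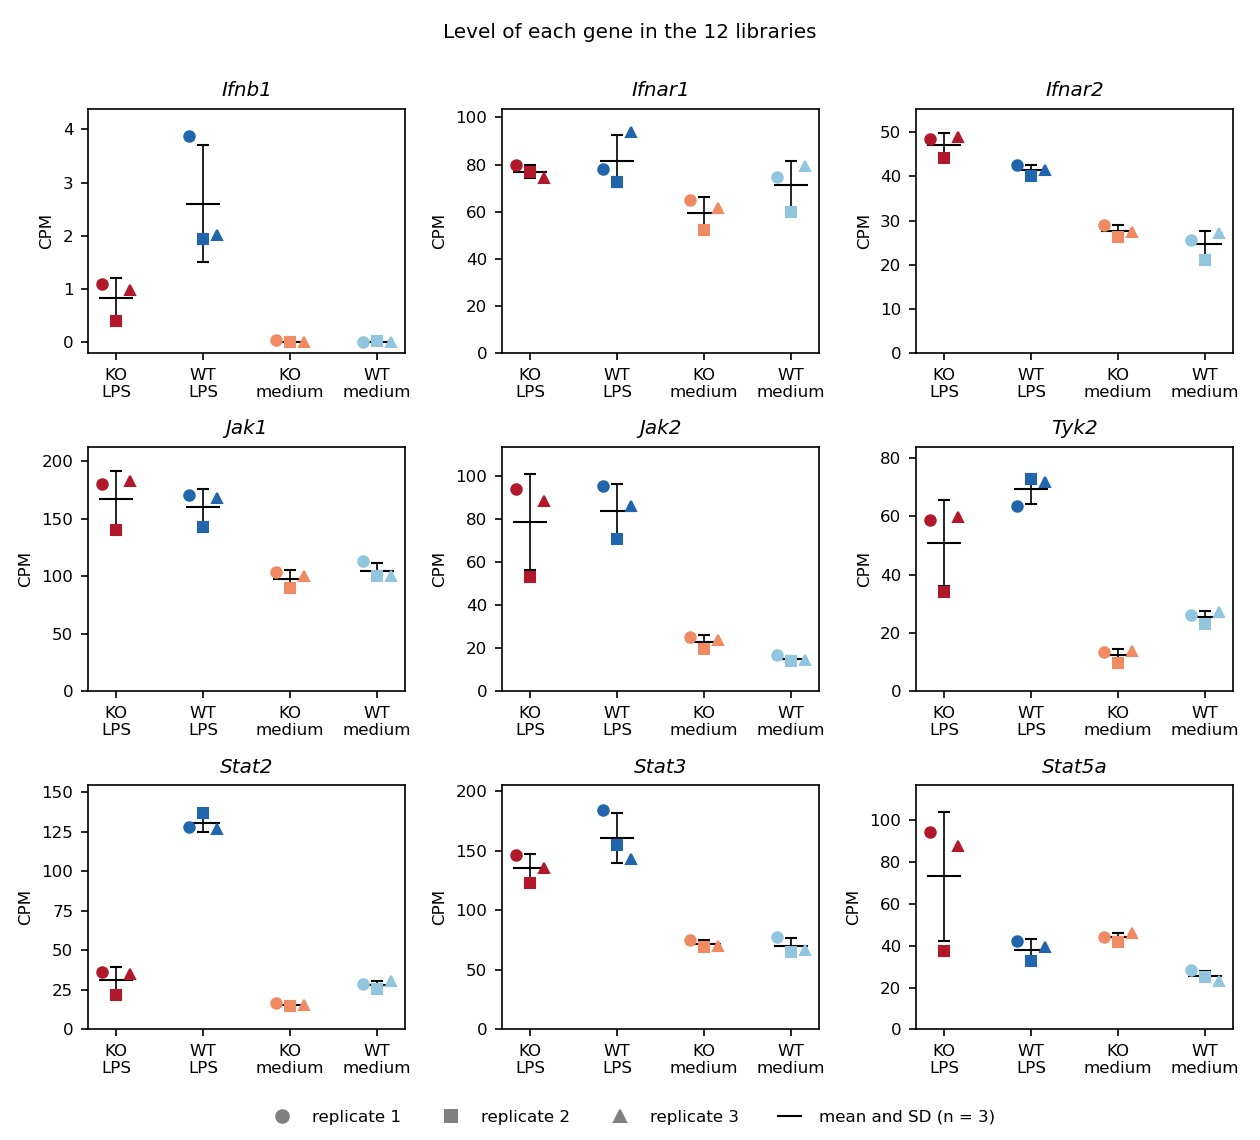
Level of each gene in CPM (counts per M after scaling), in KO and WT cells under LPS and in medium. Each point is a library, its shape the replicate number, and the bars give mean and SD (n = 3). Stat2 was at 21.8 to 36.5 CPM in KO and 127 to 137 CPM in WT under LPS.

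The ligand, Ifnb1, was nearly silent in medium and detected in every LPS library, at a lower level in KO. Under LPS, the KO libraries held 50, 22 and 42 counts of it and the WT libraries 224, 78 and 127. The medium libraries of KO held 2, 0 and 0 counts and those of WT 0, 1 and 0. In CPM, the LPS libraries stood at 1.09, 0.404 and 0.989 in KO and at 3.87, 1.94 and 2.01 in WT. Every KO library under LPS was below every WT one, with WT replicate 1 the highest of all 12 and KO replicate 2 the lowest of the 6 LPS libraries. The log2 fold change of KO over WT under LPS was -1.67 ± 0.46 (standard error, SE), or 3.18-fold lower, with a Benjamini-Hochberg adjusted p of 0.0239 in edgeR's quasi-likelihood test over all genes. That call was lost without KO replicate 2 (log2 fold change -1.33, adjusted p = 0.0813), KO replicate 3 (-1.82, 0.0549) or WT replicate 1 (-1.27, 0.11). The summed, depth-scaled counts were 58.3 times higher under LPS than in medium in KO (95% counting interval 15.8 to 487) and 420 times higher in WT (75 to 16600). These intervals hold sampling noise alone and leave out the spread between libraries. The edgeR fit gave a 51.1-fold response in KO and a 296-fold response in WT. Whether the LPS response itself differed between the lines rests on 2 KO and 1 WT counts in medium. The interaction, the LPS effect in KO minus that in WT, had a 95% interval of -6.79 to 1.72 on the log2 scale. At such counts this interval is unreliable. The SE of Ifnb1 for KO over WT under LPS, 0.46, was the largest of the 9.

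The other interferon ligand genes, 20 in number and most of them alpha subtypes, did not pass the filter on low counts. Over all 12 libraries together they had between 3 counts (Ifna14) and 58 counts (Ifnk), where Ifnb1 had 114 in KO and 429 in WT under LPS alone. Ifnk, a type I interferon known from keratinocytes, had 12 counts in KO and 13 in WT under LPS and 15 in KO and 18 in WT in medium.

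**Figure D2:**
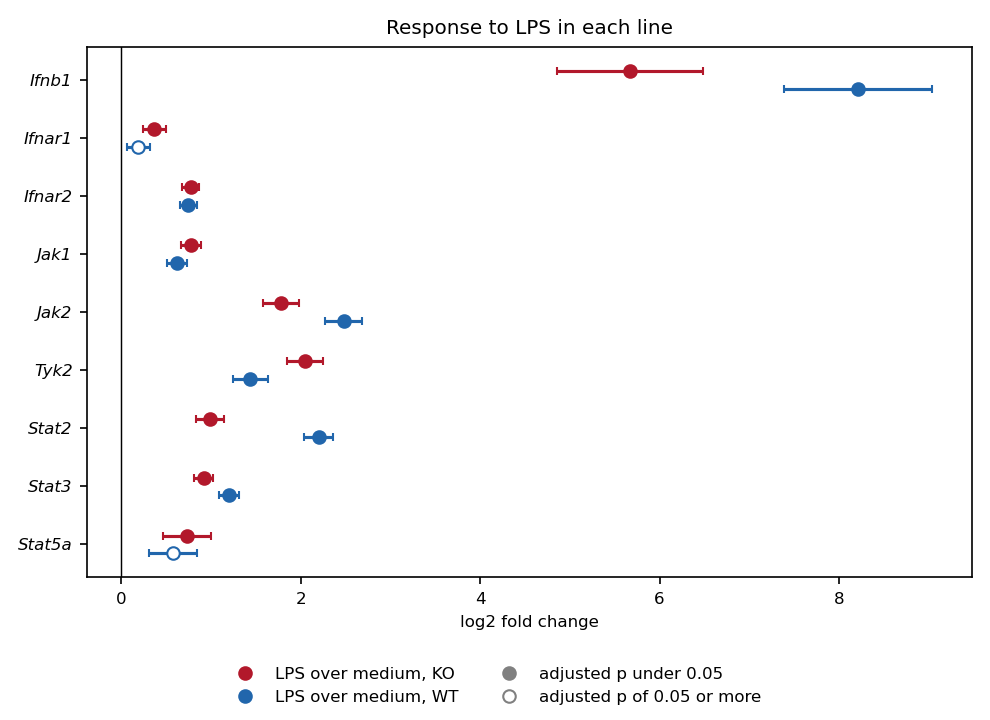
Log2 fold change of LPS over medium for each gene in KO (red, upper) and WT (blue, lower), with bars of 1 SE. Filled points passed an adjusted p of 0.05 in edgeR's quasi-likelihood test. All 9 points of KO and 7 of WT are filled, and the points of Ifnb1 rest on 2 counts in KO and 1 in WT in medium. SE is derived from the test statistic, and the bars of Ifnb1 are unreliable at so few counts.

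Under LPS, 9 of the 9 genes rose in KO and 7 of 9 in WT. Over all genes tested, 52% were called in KO, 25.3% of them higher among the 26420, and 32.6% in WT, 16.3% higher. In each line, 8 of the 9 genes had LPS and medium libraries that did not overlap, against 61.4% of all genes in KO and 43% in WT. The median log2 fold change of the 9 was 0.92 in KO and 1.20 in WT, beside -0.04 and -0.07 over all genes. With library size alone as the scale, the all-gene median was -0.29 in KO and -0.40 in WT, which left 7 of the 9 genes higher in each line. With the pseudogene share added to the model, 5 of the 9 were called in KO, namely Ifnb1, Jak1, Jak2, Tyk2 and Stat3. In KO that share was 12.8% to 14.3% in medium and 6.64% to 7.35% under LPS. Within KO it therefore cannot be told apart from LPS, and whether the other calls were lost through the share or through lower precision was not tested.

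Of the receptor chains, Ifnar1 had the smallest LPS response of the 9 genes in each line. This chain, which carries TYK2, was at 80.0, 76.9 and 74.2 CPM in KO under LPS and 64.8, 52.3 and 61.7 CPM in KO in medium. In WT it was at 78.2, 72.8 and 93.9 CPM under LPS and 74.8, 60.0 and 79.3 CPM in medium. LPS and medium libraries were separate in KO and overlapped in WT, and the response was 0.37 ± 0.13 in KO (SE; edgeR adjusted p = 0.0271) and 0.19 ± 0.12 in WT (adjusted p = 0.247). The KO call was lost without KO LPS replicate 1 or 2 (adjusted p = 0.0763 and 0.0527) or KO medium replicate 2 or 3 (0.165 and 0.0731), without a filter on low counts (0.121), with protein-coding genes only (0.125), with library size alone (0.408) and with the pseudogene share in the model (0.986), and with library size alone the WT value was -0.14. The difference between the lines in the response was 0.18, with a 95% interval of -0.21 to 0.56. KO over WT, Ifnar1 was at -0.08 under LPS (95% interval -0.36 to 0.19) and -0.26 in medium (-0.53 to 0.01), the second passing without WT medium replicate 2 (-0.40, edgeR adjusted p = 0.0175).

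Ifnar2, the chain that binds JAK1 and STAT2, rose in both lines. It was at 48.5, 44.2 and 48.9 CPM in KO and 42.5, 40.2 and 41.5 CPM in WT under LPS. In medium it was at 29.0, 26.3 and 27.4 CPM in KO and 25.5, 21.1 and 27.2 CPM in WT. All LPS libraries lay above all medium libraries, and under LPS each KO library lay above each WT library. LPS raised it by 0.78 ± 0.09 in KO and 0.75 ± 0.09 in WT (edgeR adjusted p = 8.49e-05 and 0.000103), and the interaction interval was -0.26 to 0.32. The KO excess under LPS, 0.19 (95% interval -0.01 to 0.39), did not pass the test at adjusted p = 0.201, and passed with library size alone (0.26, 0.049). Of its 31-mers, 8.5% also occur in transcripts of other genes, chiefly Gm21970, so its counts are less certain.

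Jak1, the kinase on IFNAR2 and on many cytokine receptors, had the highest level per kb of transcript of the 9 in every group. Under LPS it was at 180, 140 and 183 CPM in KO and 171, 143 and 168 CPM in WT, and in medium at 104, 89.6 and 100 CPM in KO and 113, 100 and 99.9 CPM in WT. The lines overlapped in both conditions, while LPS and medium libraries were separate in each line. LPS raised Jak1 by 0.78 ± 0.11 in KO and 0.62 ± 0.11 in WT (SE; edgeR adjusted p = 0.000358 and 0.0016). KO over WT, the 95% interval was -0.19 to 0.31 under LPS and -0.34 to 0.16 in medium.

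Tyk2, the kinase on IFNAR1, was lower in KO at rest and rose in both lines. Under LPS it was at 58.7, 34.0 and 59.8 CPM in KO and 63.4, 72.7 and 71.6 CPM in WT. Its medium libraries were at 13.3, 9.79 and 13.8 CPM in KO and 26.2, 23.2 and 27.1 CPM in WT. The lines did not overlap in either condition, but the gap under LPS was narrow, with KO replicate 3 just below WT replicate 1 and KO replicate 2 far below. In medium Tyk2 was 2.07-fold lower in KO (log2 fold change -1.05 ± 0.20, SE; edgeR adjusted p = 0.00365), a call that held in all 18 alternatives. Under LPS the difference was -0.45 ± 0.20 (adjusted p = 0.146). The response was 2.05 ± 0.20 in KO and 1.44 ± 0.20 in WT, both called (adjusted p = 2.23e-05 and 0.000246), and the difference between them, 0.61 ± 0.28, did not pass (adjusted p = 0.368). Without KO LPS replicate 2 that difference was 0.83 and did pass (adjusted p = 0.0478), and it was 0.89 (0.0175) with WT medium replicate 2 left out as well.

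Jak2 had the largest LPS response of the kinases in WT. It was at 93.9, 53.0 and 88.3 CPM in KO and 95, 70.4 and 85.8 CPM in WT under LPS, and at 25.2, 19.4 and 23.9 CPM in KO and 16.7, 13.9 and 14.5 CPM in WT in medium. The lines overlapped under LPS, and in medium each KO library was above each WT library. Jak2 rose by 1.78 ± 0.20 in KO and 2.48 ± 0.21 in WT (SE; edgeR adjusted p = 6.43e-05 and 5.91e-06), with an interaction of -0.70 ± 0.28 (adjusted p = 0.297). The medium difference, 0.60 ± 0.20, missed the threshold (adjusted p = 0.0564) and passed in 7 of 18 alternatives, and under LPS the 95% interval was -0.53 to 0.34. Tyk2 and Jak2 thus stood on opposite sides in medium, Tyk2 lower in KO and Jak2 at 22.8 ± 3.0 CPM in KO and 15 ± 1.45 CPM in WT (SD, n = 3 each).

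Stat2, the STAT held for type I and III interferon signalling, showed the largest line difference of the 9. It was at 36.5, 21.8 and 35.1 CPM in KO and 128, 137 and 127 CPM in WT under LPS. In medium it was at 16.8, 14.7 and 15.5 CPM in KO and 28.9, 25.6 and 30.6 CPM in WT. KO and WT libraries were far apart under LPS, and the KO libraries under LPS spanned the range of the WT medium libraries. KO was 4.21-fold lower under LPS (log2 fold change -2.07 ± 0.16, SE; edgeR adjusted p = 4.74e-06), a call that held in all 19 alternatives, from -2.21 to -1.87. In medium it was 1.81-fold lower (-0.86 ± 0.16, adjusted p = 0.00314), a call that held in all 18.

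LPS raised Stat2 by 0.99 ± 0.16 in KO and 2.20 ± 0.16 in WT (SE; edgeR adjusted p = 0.000731 and 1.92e-06). The interaction, -1.21 ± 0.22 with a 95% interval of -1.71 to -0.72, passed the test (adjusted p = 0.0227), so the LPS-to-medium ratio was 2.32 times smaller in KO. It was the only call among the 9 genes, where 1.6% of all genes passed, 0.693% with the positive and 0.908% with the negative sign. The value stayed between -1.35 and -0.94 in 23 alternatives and passed in 17. Leaving out any of 6 libraries lost the call, with adjusted p at 0.0652 and 0.0705 for replicates 1 and 3 of KO in medium, at 0.0638, 0.0704 and 0.0531 for replicates 1, 2 and 3 of WT under LPS, and at 0.0704 for replicate 1 of WT in medium.

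Stat3, which carries signals of interleukin 6 and interleukin 10, was not called different between the lines. It was at 147, 123 and 136 CPM in KO and 184, 155 and 143 CPM in WT under LPS, and at 75.4, 69.0 and 70.2 CPM in KO and 77.9, 64.9 and 66.8 CPM in WT in medium. The lines overlapped in both conditions and the treatments did not overlap in either line. LPS raised it by 0.92 ± 0.11 in KO and 1.20 ± 0.11 in WT (SE; edgeR adjusted p = 6.86e-05 and 8.22e-06). KO over WT, it was at -0.25 under LPS (95% interval -0.48 to -0.01, adjusted p = 0.137) and 0.03 in medium (-0.20 to 0.27). The first passed in 2 of 19 alternatives, at an edgeR adjusted p of 0.0358 with protein-coding genes only.

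Stat5a, which carries signals of GM-CSF and other growth factors, was the 1 gene of the 9 called higher in KO. Under LPS it was at 94.2, 37.6 and 87.5 CPM in KO and 42.3, 32.7 and 39.3 CPM in WT, and in medium at 44.0, 41.9 and 46.0 CPM in KO and 28.3, 25.2 and 23.2 CPM in WT. KO LPS replicates 1 and 3 were above all other libraries, and KO LPS replicate 2 lay inside the WT range and below the KO medium libraries. Under LPS the difference was 0.94 ± 0.27, or 1.92-fold (SE; edgeR adjusted p = 0.0298), and in medium 0.78 ± 0.27 (adjusted p = 0.0664). The call under LPS was lost without KO LPS replicate 1 or 3 (adjusted p = 0.122 and 0.112) or WT LPS replicate 1, 2 or 3 (0.0624, 0.109 and 0.0823), and also without a filter on low counts (0.107), with only the groups compared in the fit (0.0919) and in libraries with under 8% in processed pseudogenes (0.11), and without KO LPS replicate 2 the value was 1.25 (3.12e-05). LPS raised it by 0.73 ± 0.27 in KO (adjusted p = 0.0401), a call that passed in 8 of 18 alternatives, and the WT response of 0.57 ± 0.27 did not pass (adjusted p = 0.122). Stat5a shares 11.7% of its 31-mers, chiefly with its paralog Stat5b, so its counts are less certain.

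**Figure D3:**
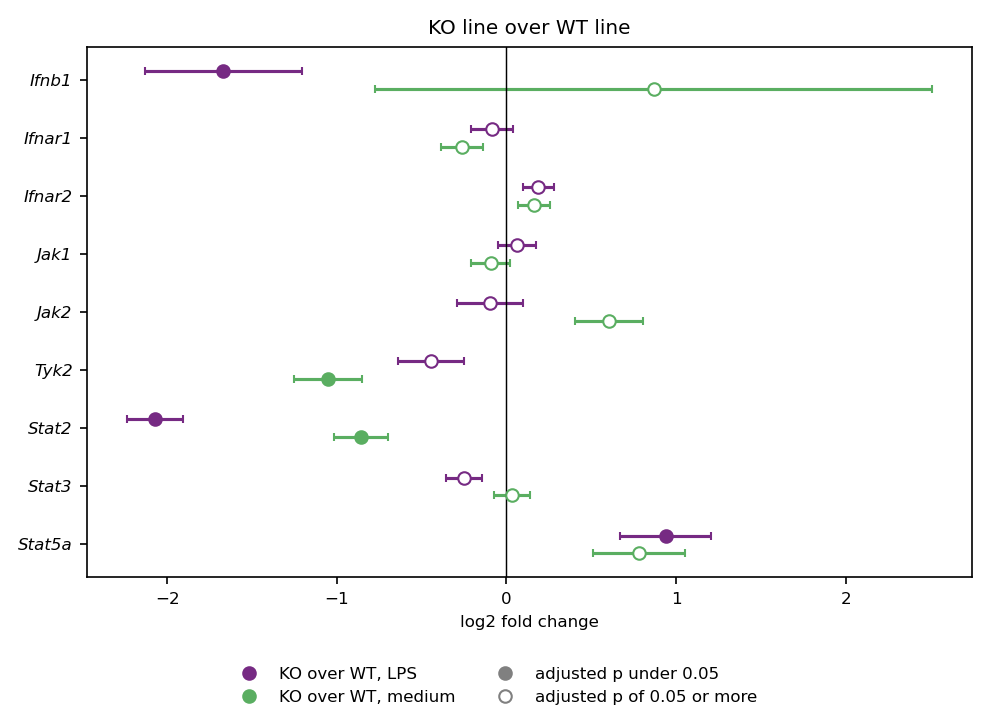
Log2 fold change of KO over WT for each gene, under LPS (purple, upper) and in medium (green, lower), with bars of 1 SE. Filled points passed an adjusted p of 0.05 in edgeR's quasi-likelihood test, namely Ifnb1, Stat2 and Stat5a under LPS and Tyk2 and Stat2 in medium.

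Between the lines, 1 of the 9 genes was higher and 2 were lower in KO under LPS, where 20.6% of all genes were called, 7.87% higher and 12.7% lower. In medium none was higher and 2 were lower, where 19.2% were called, 12.3% of all genes lower. KO and WT libraries did not overlap for 4 of the 9 under LPS (Ifnb1, Ifnar2, Tyk2 and Stat2) and for 4 in medium (Jak2, Tyk2, Stat2 and Stat5a), against 38.9% and 35.6% of all genes. With only 9 genes, shares this close to those of all genes say nothing particular about the set. Leaving out 1 library at a time left 1 or 2 of the 9 called under LPS, Stat2 always among them. In medium 4 were called with a stricter filter, with only the groups compared in the fit or with protein-coding genes only, Jak2 and Stat5a being added as higher in KO. The median log2 fold change of KO over WT for the 9 was -0.10 under LPS and 0.03 in medium, beside 0.07 and 0.04 over all genes.

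Levels per kb of the longest annotated transcript put the 9 in a different order in each line under LPS. In KO the order was Jak1 at 34.2 ± 4.85 CPM per kb (SD, n = 3), then Stat3, Ifnar1, Stat5a, Jak2, Ifnar2, Tyk2, Stat2 and Ifnb1. In WT it was Jak1 at 32.8 ± 3.1 CPM per kb, then Stat2, Stat3, Ifnar1, Jak2, Tyk2, Ifnar2, Stat5a and Ifnb1. Stat2 thus stood just above Ifnb1 in KO, at 7.08 ± 1.84 CPM per kb, and just below Jak1 in WT, at 29.8 ± 1.2, while Stat5a was at 18.5 ± 7.8 in KO and, just above Ifnb1, at 9.63 ± 1.24 in WT. Neighbours from Jak1 to Ifnar2 in WT, and from Stat3 to Ifnar2 and Tyk2 to Stat2 in KO, overlapped in their libraries and have no firm order. In medium, Jak1, Ifnar1 and Stat3 led in both lines and Ifnb1 was last, with Stat5a, Ifnar2, Jak2, Stat2 and Tyk2 between them in KO and Ifnar2, Stat5a, Stat2, Tyk2 and Jak2 in WT. There too Stat3 and Stat5a overlapped in KO, and Ifnar2 and Stat5a, and Stat5a and Stat2, in WT. With the median length of coding transcripts, Stat2 under LPS was just above Ifnb1 again in KO but below Jak1, Stat3 and Ifnar2 in WT, so the order depends on which transcript is taken.

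Genes whose levels moved most like those of Ifnb1 and Stat2 across the 12 libraries were found by the mean absolute distance of centred log2 CPM. The search covered 11319 protein-coding genes and left out the JAK and STAT families. For Ifnb1 the closest were Oasl2 (0.27), Ifit2 (0.36), Oasl1 (0.44), Nfkbia (0.53) and Tnfaip3 (0.53), beside a median distance of 2.38. Oasl2, an oligoadenylate synthetase-like protein, averaged 80.4 ± 36.2 CPM in KO and 226 ± 27 CPM in WT under LPS, and 3.94 ± 0.23 and 4.08 ± 1.01 CPM in KO and WT in medium (SD, n = 3 each). For Stat2 they were Lgals9 (0.13), Rnf114 (0.19), Smox (0.20), Oas1a (0.21) and Rapgef2 (0.22), beside a median of 0.92. Lgals9, which encodes galectin-9, averaged 33.3 ± 6.8 CPM in KO and 129 ± 9 CPM in WT under LPS, and 18.3 ± 2.5 and 29.7 ± 4.4 CPM in KO and WT in medium. In medium, Ifnb1 had 0 to 2 counts per library, so its log2 CPM there was set largely by the prior count of 2. How far its list of like genes depends on that setting was not tested. The distances describe the same 12 libraries and carry no test.

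**Figure D4:**
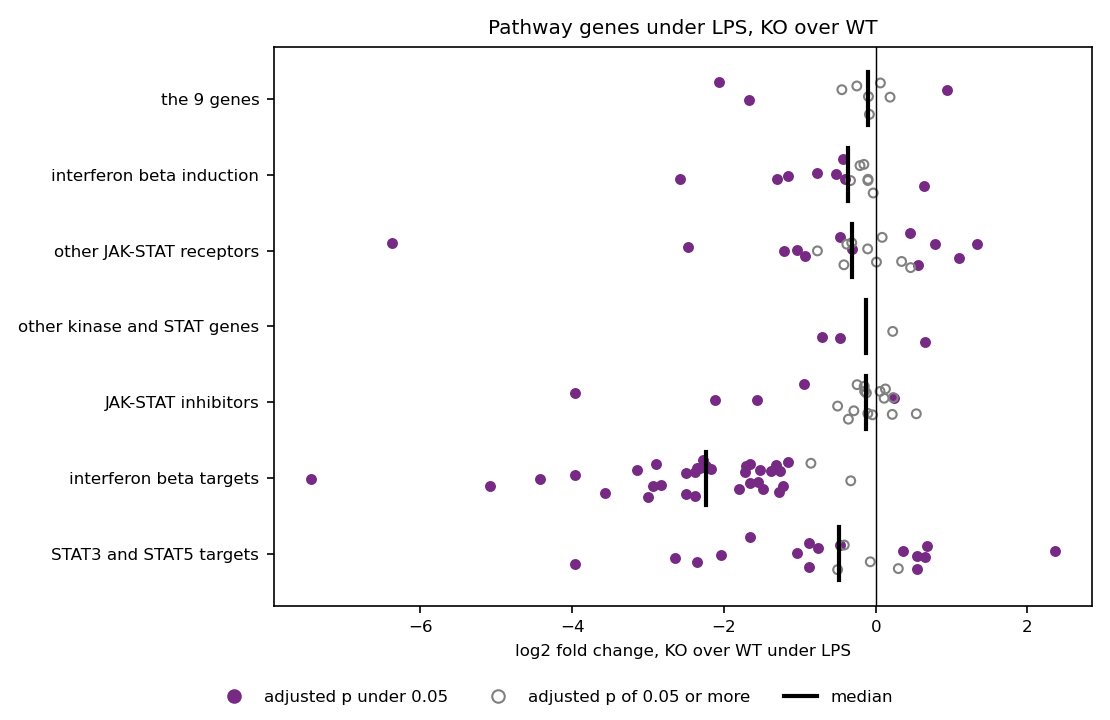
Log2 fold change of KO over WT under LPS for the 9 genes and for 6 lists of pathway genes, each point a gene and each bar the median of its list. Filled points passed an adjusted p of 0.05 in edgeR's quasi-likelihood test. The interferon beta targets lie lowest, with a median of -2.23, beside 0.07 over all genes.

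Upstream of Ifnb1, several of the 14 listed genes of its induction by LPS were lower in KO, among them the LPS receptor. Under LPS, 7 were lower and 1 higher (median -0.37), and in medium 9 were lower and none higher (median -0.48), with 5 to 12 lower over the alternatives. Of all genes, 12.7% were lower and 7.87% higher under LPS, and 12.3% were lower and 6.88% higher in medium. Irf7, the transcription factor that amplifies interferon production, averaged 24.4 ± 8.2 CPM in KO and 145 ± 16 CPM in WT under LPS, a log2 fold change of -2.58 ± 0.26. Ticam2, the adaptor that links TLR4 to the interferon branch, was at 5.19 ± 1.66 and 12.7 ± 2.1 CPM (-1.30 ± 0.26), and Tlr4 itself at 17.3 ± 1.9 and 38.5 ± 0.8 CPM (-1.15 ± 0.12), each in KO and WT under LPS. The gene that was higher, Ikbke, encodes IKK epsilon. Ikbke averaged 738 ± 97 CPM in KO and 477 ± 67 CPM in WT under LPS and 19.4 ± 3.7 and 27.8 ± 1.4 CPM in medium, with an interaction of 1.15 ± 0.22 (edgeR adjusted p = 0.0233, passed in 15 of 23 alternatives). LPS raised 11 of the 14 in KO (7 with the pseudogene share in the model) and 10 in WT and lowered Tlr4 in both. Over all genes, 25.3% were raised in KO and 16.3% in WT.

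Among 21 other cytokine receptor genes tested, 5 were higher and 7 lower in KO under LPS (median -0.31), with 2 to 6 higher and 4 to 10 lower over the alternatives. Over all genes, 7.87% were higher and 12.7% lower. Csf2ra, the GM-CSF receptor chain, had few counts in KO, at 0.975 ± 0.119 CPM in KO and 81.0 ± 14.3 CPM in WT under LPS (log2 fold change -6.37 ± 0.18, edgeR adjusted p = 2.28e-09), and at 0.691 ± 0.129 and 52.4 ± 5.1 CPM in medium. Csf3r, the G-CSF receptor (-2.48), and Il15ra, a chain of the interleukin 15 receptor (-1.21), were lower under LPS as well. Higher were Il12rb1 (1.33), Ifnlr1 (1.10), Csf2rb2 (0.78), Ifngr2 (0.56) and Il6st (0.45), named after their values were seen, of which Il12rb1 and Ifnlr1 passed in all 19 alternatives, Csf2rb2 in 11, Ifngr2 in 16 and Il6st in 15.

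Of 4 further kinase and transcription factor genes tested, Irf9, the DNA-binding part of ISGF3, was at 52.4 ± 14.2 CPM in KO and 85.5 ± 3.9 CPM in WT under LPS (log2 fold change -0.70 ± 0.17, edgeR adjusted p = 0.0107). In medium Irf9 was at 7.23 ± 0.35 and 15.6 ± 1.8 CPM (-1.11 ± 0.17, adjusted p = 0.00101), and LPS raised it by 2.86 in KO and 2.45 in WT. Its interaction, 0.40, did not pass (adjusted p = 0.49). In the KO against WT tests, Stat2 and Irf9 RNA were both lower in KO in each condition. Stat6 was lower under LPS (-0.48) and Stat5b higher (0.65 ± 0.18, adjusted p = 0.0224, lost without KO replicates 1 or 3 or WT replicates 2 or 3), on the same side as its paralog Stat5a.

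The inhibitors of the pathway held 1 gene higher and 4 lower of 20 in KO under LPS (median -0.13), where 7.87% of all genes were higher and 12.7% lower, so the count says little about the list. Cish, a feedback inhibitor induced by STAT5, averaged 1.54 ± 0.37 CPM in KO and 24.1 ± 3.8 CPM in WT under LPS, and 0.717 ± 0.111 and 0.711 ± 0.054 CPM in medium. Cish therefore started level and rose by 1.10 ± 0.21 in KO and 5.07 ± 0.23 in WT, an interaction of -3.97 ± 0.30 (edgeR adjusted p = 0.000118). Socs2, a STAT5-induced member of the same family, was at 1.87 ± 0.06 CPM in KO and 8.11 ± 1.27 CPM in WT under LPS, and at 2.93 ± 0.12 and 3.26 ± 0.40 CPM in medium. It fell by 0.65 in KO and rose by 1.31 in WT, called in both, with an interaction of -1.96 ± 0.23 (adjusted p = 0.00232). Usp18, which blocks IFNAR2 from JAK1, was at 49.7 ± 17.6 CPM in KO and 146 ± 9 CPM in WT under LPS, with an interaction of -1.94 ± 0.32 (adjusted p = 0.0141). Pias3, an inhibitor of STAT3, was lower (-0.95) and Socs4 higher (0.24), both named after their values were seen, and Socs4 passed in 7 of 19 alternatives.

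Downstream, 33 of 35 interferon beta targets were lower in KO under LPS and none was higher, the other two being Isg15 (-0.85, edgeR adjusted p = 0.0933) and Cxcl9 (-0.33, adjusted p = 0.708). The median was -2.23, beside 0.07 over all genes, and across the alternatives 31 to 34 were lower. Of all genes, 12.7% were lower, and the list was chosen with earlier results of these data known. Whether the lower levels of the listed genes came through Ifnb1 was not tested. Ifih1, the RNA sensor MDA5, averaged 1.77 ± 0.35 CPM in KO and 59.8 ± 22.9 CPM in WT under LPS (-5.08 ± 0.34). Isg20, an exonuclease, was at 1.92 ± 0.38 and 29.9 ± 2.6 CPM (-3.96 ± 0.19), and Gbp5, a guanylate-binding protein, at 6.88 ± 1.07 and 81.5 ± 10.5 CPM (-3.57 ± 0.27), each in KO and WT. In medium 21 were lower and none higher (median -1.03), where 12.3% of all genes were lower, and the range over the alternatives was 12 to 24. LPS raised 33 of the 35 in KO (median 3.77) and 34 in WT (median 5.18), beside 25.3% and 16.3% of all genes. The interaction was negative for 7 (4 to 12 over the alternatives), which rose in both lines but less in KO, and positive for Rtp4. Over all genes, 0.908% were called with the negative and 0.693% with the positive sign.

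The 20 targets of STAT3 and STAT5 went both ways, 6 higher and 10 lower in KO under LPS (median -0.49), where 7.87% of all genes were higher and 12.7% lower. Bcl6, a repressor that STAT5 is known to turn down, averaged 52.5 ± 5.5 CPM in KO and 10.2 ± 2.1 CPM in WT under LPS and 28.7 ± 2.3 and 32.0 ± 2.2 CPM in medium. LPS thus raised Bcl6 by 0.87 ± 0.14 in KO and lowered it by 1.64 in WT (log2 fold change -1.64 ± 0.14), an interaction of 2.52 ± 0.20 (edgeR adjusted p = 0.000166). Il1rn, the interleukin 1 receptor antagonist, was at 782 ± 170 CPM in KO and 3980 ± 494 CPM in WT under LPS, and at 10.3 ± 2.5 and 188 ± 9 CPM in medium. Its line difference was smaller under LPS (-2.35) than in medium (-4.19), and the interaction was 1.84 ± 0.27 (adjusted p = 0.00719). The list was made of textbook targets but chosen with earlier results of these data known, and cytokines other than interferon beta also act on these genes.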

How the data were processed

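Whole-number read counts per gene were deposited by the authors as 1 table. Per the submitters' processing notes, FastQC 0.11.9, Trimmomatic 0.39, STAR 2.7.9a, featureCounts and DESeq2 1.32.0 were used with GRCm39. How multi-mapping reads and strand were counted is not given in the sources used here. Of 55416 identifiers, 52083 matched a symbol (GENCODE on GRCm38). The rest held 6.49% of counts and stayed in totals and tests.

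Counts were tested with edgeR 4.0.16 (R 4.3.3): filterByExpr (count minimum 10), TMM scaling, a robust quasi-likelihood fit of 4 group means over 12 libraries (biological coefficient of variation 0.235), and Benjamini-Hochberg adjustment over 26420 genes, with calls at 0.05. SE is the absolute log2 fold change divided by the square root of the test's F statistic, and the 95% intervals use it. For the Ifnb1 LPS response it was 0.813 in KO and 0.824 in WT, yet 1.94 for the interaction. With so few medium counts, these SEs and intervals of Ifnb1 are unreliable. CPM are per M counts of the TMM-scaled library, computed from the counts. Between replicates, chi-square over its degrees of freedom was 22.8 to 186, above sampling noise, so each library counts once. Library totals, 39.7 to 72.9 M, bound the counting error only.

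The members and lists were chosen with earlier results of these data known. Beyond the 9 genes, the text names, per list, the 3 called genes with the largest change in KO against WT under LPS at a mean log2 CPM of at least 2, and inhibitors or induction genes called in the interaction. Other list genes called in the interaction (11, Mx1 below that level among them) and the members of small counts were named after their values were seen. Genes with like profiles had the smallest mean absolute distance of centred log2 CPM (prior count 2). Genes that are not protein-coding, of low mean level, of the JAK and STAT families or with Gm or Rik symbols were left out. Alternatives were a replicate block, DESeq2 1.42.0, scaling by RLE or library size alone, a stricter filter (1 CPM in 3 libraries) or none, robust estimation off, fits of only the groups compared, protein-coding genes only, removal of the 50 most abundant genes, the log2 pseudogene share as covariate and each library left out. Added after seeing the data were libraries with under 8% in processed pseudogenes, and KO LPS replicate 2 and WT medium replicate 2 left out together. Sequence sharing is the percent of a gene's 31-mers found in transcripts of other genes. Some genes of the pathway are not reported here.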

Additional observations from a re-analysis of the deposited data

Results flagged for a closer look

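Among the 9 genes and the lists, the LPS response of 22 genes differed between KO and WT by the test of the interaction. The lists held, of genes tested, 14 for induction, 21 receptors, 4 further kinase and transcription factor genes and 20 inhibitors. There were also 35 interferon beta targets and 20 targets of STAT3 and STAT5, and some genes were in several lists. The interaction is the LPS effect in KO minus that in WT, in edgeR's quasi-likelihood test (Benjamini-Hochberg over all genes). Over all 26420 genes tested, 1.6% were called, and the lists were chosen with earlier results of these data known. Of the 22, 11 are named by the rule and the other 11, namely Il4ra, Mx1, Ifit2, Gbp3, Gbp2, Rtp4, Cebpd, Bcl2l1, Ccnd1, Pim3 and Osm, because this test called them. Values are log2 fold changes, and each is followed by how many of 23 alternatives it passed in (22 for Il1rn). Among the 9 genes this was Stat2 at -1.21 (adjusted p = 0.0227, passed in 17). Of the inhibitors, Cish was at -3.97 (adjusted p = 0.000118, 23), Socs2 at -1.96 (0.00232, 23) and Usp18 at -1.94 (0.0141, 22). Of the induction genes and receptors, Ikbke was at 1.15 (0.0233, 15), Csf3r at -1.66 (0.0427, 13) and Il4ra at -1.38 (0.0018, 23). Of the interferon beta targets, Mx1 was at -4.63 (0.000519, 23), Gbp5 at -3.22 (0.00428, 23), Ifih1 at -3.02 (0.0231, 18) and Isg20 at -2.91 (0.000451, 23). Ifit2 was at -2.46 (0.041, 12), Gbp3 at -1.86 (0.00832, 23), Gbp2 at -1.28 (0.0368, 13) and Rtp4, on the other side, at 2.72 (0.0304, 14). Of the STAT3 and STAT5 targets, Bcl6 was at 2.52 (0.000166, 23), Il1rn at 1.84 (0.00719, 22), Cebpd at 1.27 (0.0205, 15) and Bcl2l1 at 1.25 (0.00868, 23). Ccnd1 was at 0.86 (0.0083, 23), Pim3 at 0.60 (0.0116, 22) and Osm at -0.82 (0.00392, 23).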

How the results depend on the processing

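The call that Stat2 was lower in KO under LPS and in medium, and the call that Tyk2 was lower in medium, held in every alternative run. Of the 9 genes, 9 were called for LPS in KO, and 5 with the pseudogene share as covariate. The 2 called in KO against WT in medium became 4 with a stricter filter, with only the groups compared or with protein-coding genes only, and 5 without KO LPS replicate 2 and WT medium replicate 2 (an alternative chosen after seeing the data), which also gave 2 interaction calls. Leaving out 1 library at a time gave 7 calls throughout for LPS in WT, 7 to 8 in KO, 2 to 3 for the lines in medium, 1 to 2 under LPS (3 with all libraries) and 0 to 2 for the interaction. Deviations of same-numbered libraries had correlations between -0.366 and 0.391, and 6 of 12 matched their own number best. With 3 libraries per group, this check cannot decide whether the numbers pair the samples. The fit with a replicate block gave 4 calls in medium, called Stat3 lower in KO under LPS (-0.25, adjusted p = 0.019 in edgeR) and changed no other count of the 9 by over 1.5 times. With library size alone, the LPS responses of Stat6 (-0.017) and Il6st (-0.33) in WT and of Socs4 in WT (-0.10) and KO (-0.063), each called in 1 of the fits, changed sign, as did 6 values called in neither, among them WT responses of Ifnar1 (-0.14), Ticam2 (-0.30), Stat5b (-0.14) and Csf2rb2 (-0.08). Over all 45 named genes, 75 values gained and 247 lost their call among the alternatives and 4032 did neither, 73 of which, uncalled, changed sign. The cause of lost calls was not tested.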
